A study of Homo sapiens with 4 samples.

Results

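In the human breast cancer line MDA-MB-468, which is triple-negative, 50 protein-coding genes stood at a few TPM or more in control cells and close to none in cells depleted of SASH1. TPM is a measure of transcript level that takes both the length of the gene and the size of the library into account. The genes were chosen by 2 limits on the measured values, a mean under 0.5 TPM in the shSASH1 libraries and a mean of at least 3 TPM in the shControl libraries. Of 26518 rows, 18999 were protein-coding in GENCODE on hg38, and 11116 of these reached 3 TPM in shControl, so the 50 were 0.45% of them. Because these values chose the genes, their levels and the gap between the groups are given as a description, with no test. The mirrored limits, under 0.5 TPM in shControl and at least 3 TPM in shSASH1, picked out 52 protein-coding genes.

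Cells received lentivirus with a short hairpin RNA against SASH1 (shSASH1, 2 libraries) or the control virus pGIPZ-CTRL (shControl, 2 libraries), and puromycin was used to select stable clones. Both groups therefore share the parental line, infection and puromycin, and differences between clones cannot be told apart from depletion. The labels give neither the number of hairpins or clones nor whether libraries are separate cultures. The p-values thus measure the spread between these libraries alone, and that spread may be technical. SASH1 itself, a signalling adaptor, was at 3.65 and 4.01 TPM in shSASH1 and at 15.0 and 13.0 TPM in shControl.

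A gene that is active in one cell population and silent in another may have lost its activating transcription factors, or may be held silent by DNA methylation or by repressive histone marks at its promoter. Genes of neurons, muscle and the germline are often silent in epithelial cells, and cancer cell lines express some of them out of place. In bulk RNA, fewer cells that express a gene and less RNA per cell cannot be told apart.

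The epithelial and basal markers EGFR, KRT5, KRT17, KRT8, KRT18, KRT19, EPCAM and CDH1 were all well above 1 TPM in every library. The lowest of them was CDH1, the epithelial cadherin, at 66.5 and 48.2 TPM in shSASH1 and 76.9 and 80.4 TPM in shControl. Of the fibroblast markers, COL1A2 and LUM were listed at 0 in all 4 libraries, but COL1A1 was at 8.985 and 10.9 TPM in shSASH1 and 6.998 and 6.32 TPM in shControl. PTPRC, the leukocyte surface phosphatase, was at most 0.104 TPM, while CD14 was at 33.3 and 96.5 TPM in shSASH1 and 33.2 and 39.9 TPM in shControl. Of the neuron markers SNAP25 was listed at 0 throughout, and the summed level of all 4 was 0.507 and 0.972 TPM in shSASH1 and 2.51 and 1.86 TPM in shControl. Of the genes listed as absent in triple-negative cells, PGR was at most 0.0248 TPM, but ESR1 was at 2.79 and 3.64 TPM in shSASH1 and 2.585 and 2.29 TPM in shControl. The muscle marker CKM was at 1.96 and 6.38 TPM in shSASH1 and 1.205 and 1.12 TPM in shControl, with the other muscle markers at most 0.127 TPM. Mean levels in shSASH1 and shControl were 0.954 and 2.11 TPM for the endothelial marker PECAM1 and 2.13 and 1.29 TPM for KDR. The part of all these markers in the results was not tested. Rebuilt read totals were 24359690 and 19532994 in shSASH1 and 20777780 and 24193467 in shControl. Log2(TPM + 1) correlated across tested genes at 0.975 between the shSASH1 libraries and 0.988 between the shControl libraries, and genes are not independent replicates.

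The shControl means of the 50 genes ran from 3.001 to 40.6 TPM with a median of 5.26, and the shSASH1 means from 0 to 0.498 TPM with a median of 0.224. In shControl 14 genes were at 10 TPM or more, 13 between 5 and 10 TPM, and 23 under 5 TPM, so the group consisted mostly of weakly expressed genes. Summed over the 50 genes, the level was 11.9 and 10.4 TPM in the shSASH1 libraries and 440 and 460 TPM in the shControl libraries. Reads rebuilt from TPM came to a median of 9 per gene over both shSASH1 libraries (0 to 47) and 356 over both shControl libraries (42 to 1681). In shSASH1, 12 genes rested on 3 reads or fewer, which limits what can be said about how low they were.

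Most genes met the limits in every library. Both shSASH1 values were under 0.5 TPM for 41 genes, both shControl values were at least 3 TPM for 43, and both held for 35. No value in one group reached the other group's range for any of the genes, and the lowest shControl value was at least 3.68 times the highest shSASH1 value. Neither shSASH1 library was the lower one throughout, replicate 1 being higher for 25 genes and lower for 22. In shControl replicate 1 was higher for 23 genes and lower for 27. The larger shControl value was a median of 1.09 times the smaller, and at most 1.49 times, for STON2.

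**Figure D1:**
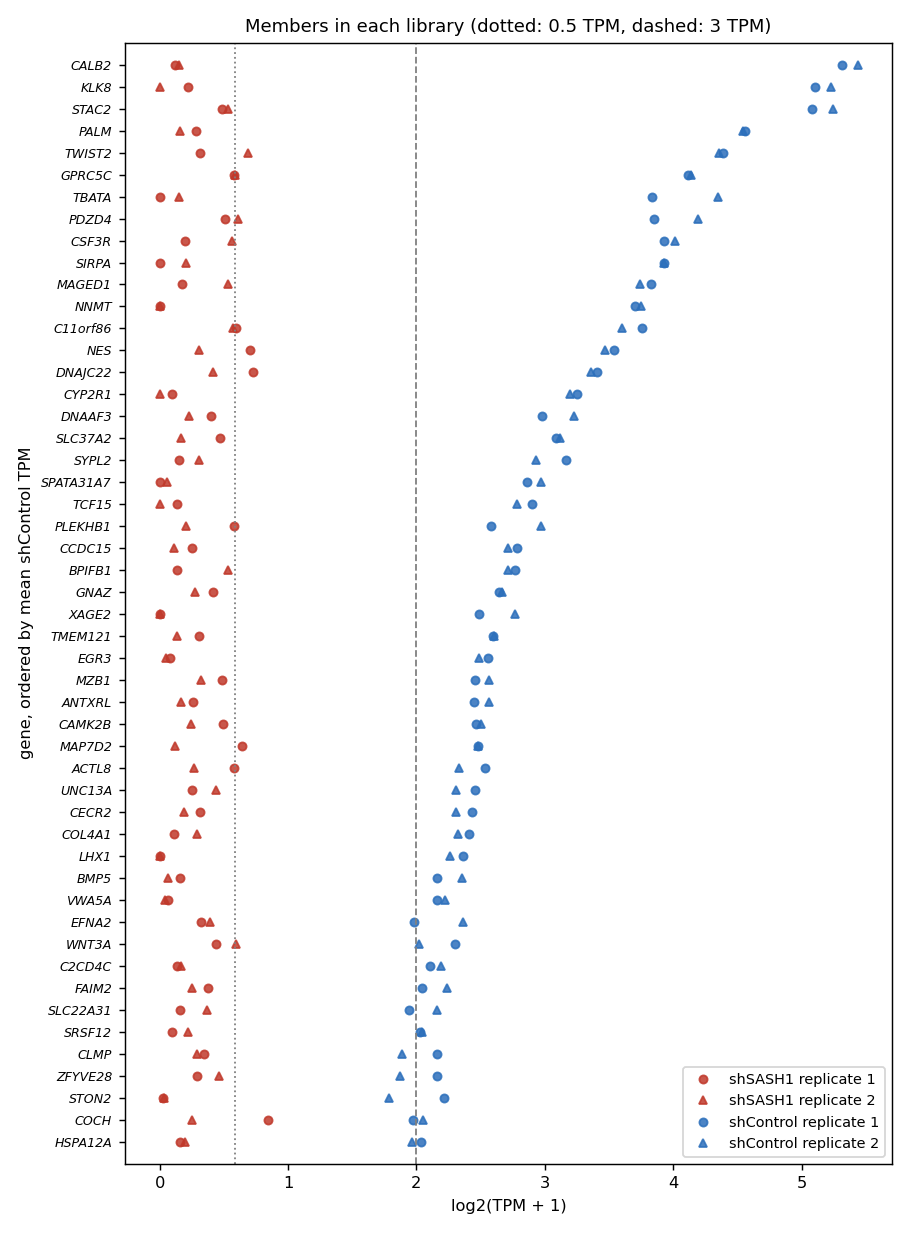
Each row is 1 gene and each point 1 library, on a log2(TPM + 1) axis, with shSASH1 in red and shControl in blue. The blue points run from 40.6 TPM on average for CALB2 down to the 3 TPM limit, while the red points stay under 0.794 TPM at every shControl level.

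At the edge of the shSASH1 limit, the genes just inside were C11orf86 (0.513 and 0.483 TPM), GPRC5C (0.495 and 0.501 TPM) and DNAJC22 (0.652 and 0.334 TPM), while BEND7 (0.456 and 0.610 TPM), RAB7B (0.289 and 0.777 TPM) and PDK2 (0.445 and 0.662 TPM) were just outside. At the edge of the shControl limit, HSPA12A (3.098 and 2.905 TPM), COCH (2.92 and 3.14 TPM) and STON2 (3.645 and 2.44 TPM) were just inside, while KLF14 (2.32 and 3.22 TPM), ANOS1 (2.75 and 2.78 TPM) and ATP8B2 (2.73 and 2.77 TPM) were just outside. The edges were gradual, so membership of such genes follows from where the limits were placed.

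The largest functional group, with 11 genes, acts in calcium handling, synapses and membrane signalling. CALB2 encodes calretinin, an EF-hand calcium buffer of neurons and mesothelium, and was the most abundant of the 50. It was at 0.0896 and 0.112 TPM in shSASH1, which is 1 rebuilt read in each library, and at 38.9 and 42.3 TPM in shControl. STAC2, an adaptor that regulates L-type calcium channels, was at 0.400 and 0.445 TPM in shSASH1 and at 32.9 and 36.9 TPM in shControl. PALM, the lipid-anchored membrane protein paralemmin, was at 0.217 and 0.117 TPM in shSASH1 and at 22.6 and 22.4 TPM in shControl. The shControl mean of PALM was thus 135 times the shSASH1 mean. All of these were abundant in both control libraries and rested on a handful of reads after depletion.

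Lower in shControl were SYPL2, a synaptophysin-like protein of the muscle triad, with 0.113 and 0.236 TPM in shSASH1 and 7.97 and 6.63 TPM in shControl, and PLEKHB1, with 0.494 and 0.155 TPM in shSASH1 and 4.98 and 6.85 TPM in shControl. GNAZ, a G protein alpha subunit that inhibits adenylyl cyclase, was at 0.332 and 0.208 TPM in shSASH1 and at 5.24 and 5.35 TPM in shControl. CAMK2B, a calcium- and calmodulin-dependent kinase subunit, was at 0.411 and 0.187 TPM in shSASH1 and at 4.51 and 4.68 TPM in shControl. UNC13A, which primes synaptic vesicles for release, was at 0.191 and 0.358 TPM in shSASH1 and at 4.496 and 3.96 TPM in shControl. The endocytic adaptor STON2, the endosomal protein ZFYVE28 and C2CD4C completed the group, with shControl means between 3.04 and 3.44 TPM.

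The other calcium buffers and coupling proteins did not move as a block. Of 17 further EF-hand genes listed, 9 were tested, of which 3 fell and 1 rose, where 13.3% of all tested genes were called lower and 18.8% higher. Across all genes the split of calls depended on scaling, with 1918 lower and 2712 higher as deposited and 2434 lower and 2280 higher after quantile normalization. CALML5, an epidermal calmodulin-like protein, fell to 58.2 and 29.6 TPM in shSASH1, against 401 and 444 TPM in shControl (log2 change -3.31 ± 0.32 SE, limma adjusted p = 0.00532). NECAB3 (-0.69) and VSNL1 (-1.56) fell and HPCAL1 (0.33) rose. VSNL1 did not pass with a pseudocount of 0.1 (adjusted p = 0.0553), nor HPCAL1 with median-of-ratios scaling (adjusted p = 0.056). CALB1, the closest relative of CALB2, was at 0 to 0.0535 TPM in the 4 libraries and was not tested. Of 19 other excitation-contraction coupling genes, 11 were tested, with 2 lower and 3 higher. RYR1, the calcium release channel of skeletal muscle, fell (log2 change -2.02) and so did the calcium pump ATP2A3 (-1.11), while the junctional membrane protein JPH1 rose (2.65).

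Among secreted proteins and ligands, 7 genes in all, KLK8 led. KLK8 is the secreted serine protease neuropsin, of the kallikrein cluster on chromosome 19 (chr19:50996007-51002711, minus strand). It was at 0.163 and 0 TPM in shSASH1 and at 33.4 and 36.6 TPM in shControl. BPIFB1, a secreted protein of airway epithelium, was at 0.101 and 0.443 TPM in shSASH1 and at 5.82 and 5.56 TPM in shControl. COL4A1, the alpha-1 chain of basement membrane collagen IV, was at 0.0831 and 0.221 TPM in shSASH1 and at 4.33 and 4.004 TPM in shControl. BMP5, a bone morphogenetic protein, had 0.115 and 0.0481 TPM in shSASH1 and 3.48 and 4.11 TPM in shControl. WNT3A, a ligand of canonical Wnt signalling, had 0.356 and 0.510 TPM in shSASH1 and 3.93 and 3.06 TPM in shControl. EFNA2, a membrane-anchored ligand of Eph receptors, had 0.251 and 0.315 TPM in shSASH1 and 2.95 and 4.15 TPM in shControl. COCH, whose last bases overlap STRN3 on the opposite strand, had the highest single shSASH1 value, with 0.794 and 0.189 TPM against 2.92 and 3.14 TPM in shControl.

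Of the surface receptors and adhesion proteins, CSF3R, the receptor of granulocyte colony-stimulating factor, was at 0.145 and 0.476 TPM in shSASH1 and at 14.2 and 15.1 TPM in shControl. SIRPA, the inhibitory receptor that binds CD47, was at 0 and 0.151 TPM in shSASH1 and at 14.2 TPM in both shControl libraries. GPRC5C, an orphan receptor induced by retinoic acid, was at 0.495 and 0.501 TPM in shSASH1 and at 16.4 and 16.6 TPM in shControl. CLMP, an adhesion protein of tight junctions, and ANTXRL, an anthrax toxin receptor-like protein, had shControl means of 3.09 and 4.69 TPM. On the SIRPA axis, 6 further genes were tested, of which 2 fell and 0 rose, beside 13.3% lower and 18.8% higher among all tested genes. SIRPG fell to 0.272 and 0 TPM in shSASH1, against 2.43 and 1.75 TPM in shControl, and QPCT fell (log2 change -1.41). SIRP genes are near copies, so reads may be shared between them. CD47 itself was at 52.2 and 62.1 TPM in shSASH1 and at 44.9 and 43.8 TPM in shControl and did not pass (limma adjusted p = 0.0598).

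Among the 6 regulators of transcription, chromatin and splicing was TWIST2, a basic helix-loop-helix factor of mesenchyme and of epithelial-mesenchymal transition. It was at 0.245 and 0.613 TPM in shSASH1 and at 19.98 and 19.5 TPM in shControl. TCF15 (paraxis), a factor of the same class from somites, was at 0.0980 and 0 TPM in shSASH1 and at 6.47 and 5.90 TPM in shControl. LHX1, a LIM homeobox factor of kidney and brain, was listed at 0 in both shSASH1 libraries and at 4.16 and 3.79 TPM in shControl. The divergent noncoding gene LHX1-DT beside it was at 0 and 0.0751 TPM in shSASH1 and at 1.81 and 1.43 TPM in shControl. EGR3, an immediate early zinc-finger factor, was at 0.0605 and 0.0379 TPM in shSASH1 and at 4.88 and 4.60 TPM in shControl. CECR2, a bromodomain protein of chromatin remodelling complexes, and SRSF12, a splicing regulator, had shControl means of 4.18 and 3.097 TPM. In each of these genes the 2 shControl libraries lay close together, while the gap to the shSASH1 libraries follows from the limits.

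Among 44 genes of the silencing machinery (Polycomb, DNA methylation, histone deacetylase and heterochromatin factors), 9 fell, 9 rose and 26 did not pass, with a median log2 change of 0.01. Over all tested genes 13.3% fell and 18.8% rose, with a median of 0.06. The 9 listed genes that fell were thus a larger share than over all tested genes, and the 9 that rose a similar one. The difference was not tested. The list includes the TET enzymes, which remove DNA methylation, so not every gene that rose acts in silencing. UHRF1, which guides maintenance methylation, fell (log2 change -1.20), as did the Polycomb subunit BMI1 (-0.99) and the H3K9 methyltransferase SUV39H1 (-0.85), while the DNA methyltransferase DNMT3A rose (0.84). These were the largest changes among the called genes of the list. The DNA methyltransferase DNMT1 (0.43) and the Polycomb subunits PHC2 (0.53) and PHC1 (0.46) rose as well. Neither the Polycomb genes nor those of DNA methylation thus moved in a single direction. Neither DNA methylation nor chromatin was measured in the files.

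Of the enzymes, transporters and chaperones, NNMT, which methylates nicotinamide, was listed at 0 in both shSASH1 libraries and at 12.0 and 12.4 TPM in shControl. That was 455 rebuilt reads over the shControl libraries, the largest number among the 3 genes listed at 0 in both shSASH1 libraries. CYP2R1, the vitamin D 25-hydroxylase, was at 0.0675 and 0 TPM in shSASH1 and at 8.53 and 8.19 TPM in shControl. SLC37A2, a sugar-phosphate antiporter, was at 0.383 and 0.120 TPM in shSASH1 and at 7.49 and 7.70 TPM in shControl. DNAJC22, a DnaJ-domain protein, was at 0.652 and 0.334 TPM in shSASH1 and at 9.61 and 9.26 TPM in shControl. The remaining members of this group, MZB1, HSPA12A and SLC22A31, had shControl means from 3.001 to 4.72 TPM.

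In the cytoskeletal group, nestin (NES), the intermediate filament of neural progenitors, was at 0.629 and 0.240 TPM in shSASH1 and at 10.6 and 10.05 TPM in shControl. DNAAF3, an assembly factor of ciliary dynein arms, was at 0.323 and 0.173 TPM in shSASH1 and at 6.87 and 8.38 TPM in shControl. MAP7D2, a microtubule-associated protein, was at 0.558 and 0.0875 TPM in shSASH1 and at 4.57 TPM in both shControl libraries. NES and MAP7D2 thus exceeded 0.5 TPM in shSASH1 replicate 1 while replicate 2 was well under it.

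A set of 5 genes is of germline or MAGE type. TBATA, expressed in thymus, brain and testis, was at 0 and 0.111 TPM in shSASH1 and at 13.3 and 19.3 TPM in shControl. MAGED1, an adaptor of the MAGE family that is widely expressed, was at 0.127 and 0.444 TPM in shSASH1 and at 13.2 and 12.4 TPM in shControl. SPATA31A7, a testis gene, was at 0 and 0.0383 TPM in shSASH1 and at 6.25 and 6.83 TPM in shControl. Its family consists of near copies, but the 4 other SPATA31A rows were at most 0.0877 TPM in any library. XAGE2, a cancer-testis antigen, was listed at 0 in both shSASH1 libraries and at 4.62 and 5.81 TPM in shControl, on 17 and 25 rebuilt reads. ACTL8, an actin-like protein of testis, had 0.496 and 0.207 TPM in shSASH1 and 4.81 and 4.03 TPM in shControl. Of 4 other cancer-testis antigens tested, beside 13.3% lower and 18.8% higher among all tested genes, none fell and 3 rose, namely MAGEA3 (log2 change 0.75), MAGEA12 (0.35) and MAGEA6 (0.31), which are near copies of each other. Among those too low to test, MAGEA4 was listed at 0 in both shSASH1 libraries and at 1.16 and 0.804 TPM in shControl, and MAGEA1 was at 0.534 and 0.223 TPM in shSASH1 and 1.196 and 1.36 TPM in shControl.

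The remaining 6 genes were PDZD4, C11orf86, CCDC15, TMEM121, VWA5A and FAIM2. PDZD4, a PDZ-domain protein, was at 0.421 and 0.528 TPM in shSASH1 and at 13.4 and 17.3 TPM in shControl. C11orf86 was at 0.513 and 0.483 TPM in shSASH1 and at 12.5 and 11.2 TPM in shControl. TMEM121 had 0.238 and 0.0992 TPM in shSASH1 and 5.05 and 5.07 TPM in shControl. The rest are described by position further on.

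Position in the genome was not used to choose the genes. Chromosome 11 held 8 of them and chromosome 19 held 6, and none lay on chromosomes 3, 15, 18 or 21. As a share of protein-coding genes at 3 TPM or more in shControl, this was 8 of 667 (1.199%) on chromosome 11 and 4 of 340 (1.18%) on chromosome X, against 50 of 11116 (0.45%) overall. Several lay in stretches where each gene was within 1 Mb of the next: CLMP, VWA5A, CCDC15 and SLC37A2 on chromosome 11, DNAJC22 and FAIM2 on chromosome 12, C2CD4C, PALM and EFNA2 on chromosome 19, and MAGED1 and XAGE2 on chromosome X.

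The stretch on the long arm of chromosome 11 (hg38, chr11:123069865-125090312) held the most genes of the group. VWA5A was at 0.0476 and 0.0298 TPM in shSASH1 and at 3.46 and 3.66 TPM in shControl. CCDC15, a coiled-coil protein, was at 0.190 and 0.0792 TPM in shSASH1 and at 5.87 and 5.56 TPM in shControl. CLMP was at 0.271 and 0.227 TPM in shSASH1 and at 3.47 and 2.71 TPM in shControl. Of the 7 other protein-coding genes tested in the stretch, 5 fell and 0 rose, with a median log2 change of -0.94, where 14.0% of all protein-coding genes tested fell and 20% rose, with a median of 0.06.

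NRGN (neurogranin), a calmodulin-binding protein of neurons, fell to 1.01 and 1.89 TPM in shSASH1, against 22.8 and 29.2 TPM in shControl (log2 change -3.48 ± 0.24 SE, limma adjusted p = 0.00308). The axon guidance receptor ROBO3 fell to 0.0873 and 0.109 TPM in shSASH1, against 2.39 and 1.98 TPM in shControl (adjusted p = 0.0125). SIAE (log2 change -1.40), ESAM (-0.94) and MSANTD2 (-0.37) fell too. Without a filter on low values ESAM (adjusted p = 0.0543) and MSANTD2 (adjusted p = 0.0529) did not pass, and MSANTD2 did not with the replicate block (adjusted p = 0.0642). ZNF202, between CLMP and VWA5A, was at 20.7 and 20.4 TPM in shSASH1 and 21.6 and 21.7 TPM in shControl. TBRG1, between VWA5A and SIAE, was at 28.3 and 30.6 TPM in shSASH1 and 33.5 and 30.8 TPM in shControl. Neither of them passed. That part of the stretch thus held genes near 0 in shSASH1 next to genes at similar levels in both groups. From SIAE to the end of the stretch every tested gene was lower, with CCDC15 and SLC37A2 chosen for being low. Just outside it, TMEM218 fell to 1.01 and 0.317 TPM in shSASH1, against 9.90 and 10.5 TPM in shControl. On the other side HSPA8, the constitutive HSC70 chaperone, fell to 606 and 494 TPM in shSASH1, against 1099 and 1159 TPM in shControl.

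**Figure D2:**
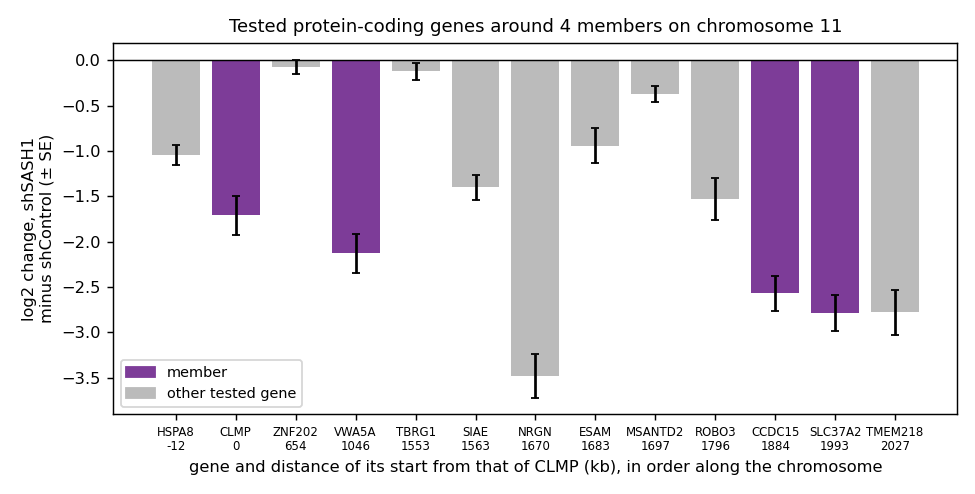
Bars give the log2 change (shSASH1 minus shControl, on log2(TPM + 1), ± SE of the limma fit) of tested protein-coding genes in order along chromosome 11, with the distance of each start from that of CLMP in kb. Purple bars are genes of the group, chosen for being low, and gray bars are others, which run from -0.07 for ZNF202 to -3.48 for NRGN.

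The other stretches with tested genes were shorter, and their counts are read against the same shares of 14.0% lower and 20% higher. Between DNAJC22 and FAIM2, an inhibitor of FAS-mediated death at 0.302 and 0.189 TPM in shSASH1 and 3.12 and 3.73 TPM in shControl, 9 genes were tested, of which 3 fell and 0 rose. These were KCNH3 (log2 change -1.33), FMNL3 (-0.76) and MCRS1 (-0.30), the last not passing with the replicate block (limma adjusted p = 0.0721). In the stretch of C2CD4C, PALM and EFNA2, 5 of 30 tested genes fell and 3 rose, with a median log2 change of 0.01. There PALM stood near 0 in shSASH1 among genes whose levels mostly did not pass.

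Taking for each gene the nearest tested protein-coding gene on either side gave 94 neighbours, of which 30 were lower (31.9%), 16 higher (17.0%) and 48 not called. Among all 12516 protein-coding genes tested, 14.0% were called lower and 20% higher. The median log2 change was -0.16 in the neighbours and 0.06 over all protein-coding genes tested. Among the 52 neighbours within 50 kb the share called lower was 38.5%, and among the 36 between 50 kb and 1 Mb it was 25%. Leaving out the neighbours of KLK8 and of the 4 chromosome 11 genes left 25 of 87 lower (28.7%). Counting just those calls that also changed by 1 or more on the log2 scale, 15 neighbours were lower (16.0%) and 2 higher (2.13%), against 3.83% and 5.08% of all tested genes. Those last shares include noncoding genes, unlike the 14.0% and 20%. The neighbour shares are descriptions, with no test of the difference. Some neighbours share a locus with the gene of the group, while 6 lay over 1 Mb away.

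The neighbours with the largest falls included several abundant genes. TNNT1, the slow skeletal troponin T beside DNAAF3, fell to 1.37 and 1.98 TPM in shSASH1, against 60.0 and 55.8 TPM in shControl (log2 change -4.47 ± 0.15 SE, limma adjusted p = 0.00151). KLK10 and KLK7, on either side of KLK8, fell by 3.65 and by 3.35 on the log2 scale. SYT12, beside C11orf86, fell to 27.4 and 32.2 TPM in shSASH1, against 102 TPM in both shControl libraries. The vitamin C transporter SLC23A1 beside MZB1 (log2 change -1.74), THEG beside C2CD4C (-1.50), the adhesion molecule L1CAM beside PDZD4 (-1.48) and SIRPG beside SIRPA (-1.45) fell as well. In the other direction, ARHGEF10L beside ACTL8 (1.22), WNT9A beside WNT3A (1.12) and IRS2 beside COL4A1 (0.98) rose. WNT9A, a neighbour of the same family as WNT3A, was at 19.6 and 14.7 TPM in shSASH1 and at 7.28 and 7.31 TPM in shControl. L1CAM did not pass with a pseudocount of 0.1 (adjusted p = 0.0611).

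COL4A1 and COL4A2 are transcribed away from each other from neighbouring starts, and their products assemble into the same collagen IV trimer. COL4A2 fell to 0.979 and 1.03 TPM in shSASH1, against 3.96 and 4.16 TPM in shControl (log2 change -1.34 ± 0.17 SE, limma adjusted p = 0.00935). The genes overlap at their starts in GENCODE, so without strand information some reads cannot be assigned to one of them. The bases between their RefSeq start sites (GRCh38.p14, chr13:110307158-110307283, plus strand) are shown because they separate the starts of the pair, although in GENCODE, whose COL4A2 begins further out, they overlap annotated gene bodies, with CpG dinucleotides in capitals.
COL4A1-COL4A2: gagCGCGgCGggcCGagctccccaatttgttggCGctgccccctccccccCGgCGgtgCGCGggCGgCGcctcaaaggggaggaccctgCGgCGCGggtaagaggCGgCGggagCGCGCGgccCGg
These 126 bases held 20 CpG dinucleotides at a GC content of 80.2%.

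RefSeq promoter windows were matched by symbol for 32 of the 50 genes. That is too few for a check of promoter composition or motifs over the group, which is therefore void. For those 32 alone, the ratio of observed to expected CpG was under 0.6 in 46.9%, against 15.3% of 9044 other protein-coding genes at 3 TPM or more in shControl. At 3 to 10 TPM it was under 0.6 in 42.3% of 26 genes, against 27.2% of 1697 others. The 250 bases before the start of 4 genes show how different these promoters are, with CpG dinucleotides in capitals, the sites where DNA methylation is placed (GRCh38.p14: TWIST2, chr2:238847835-238848084, plus strand; CCDC15, chr11:124953952-124954201, plus strand; XAGE2, chrX:52368771-52369020, plus strand; TBATA, chr10:70785378-70785627, minus strand).
TWIST2: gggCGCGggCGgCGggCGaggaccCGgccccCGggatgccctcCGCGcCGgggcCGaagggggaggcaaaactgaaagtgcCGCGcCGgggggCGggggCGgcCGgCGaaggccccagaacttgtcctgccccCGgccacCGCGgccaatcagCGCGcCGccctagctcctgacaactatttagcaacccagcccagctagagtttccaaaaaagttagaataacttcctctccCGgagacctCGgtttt
CCDC15: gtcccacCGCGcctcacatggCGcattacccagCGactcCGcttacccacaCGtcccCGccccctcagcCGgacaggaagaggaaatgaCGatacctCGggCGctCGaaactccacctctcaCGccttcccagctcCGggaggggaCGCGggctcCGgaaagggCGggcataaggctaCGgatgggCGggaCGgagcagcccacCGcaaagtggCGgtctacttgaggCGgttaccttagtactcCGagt
XAGE2: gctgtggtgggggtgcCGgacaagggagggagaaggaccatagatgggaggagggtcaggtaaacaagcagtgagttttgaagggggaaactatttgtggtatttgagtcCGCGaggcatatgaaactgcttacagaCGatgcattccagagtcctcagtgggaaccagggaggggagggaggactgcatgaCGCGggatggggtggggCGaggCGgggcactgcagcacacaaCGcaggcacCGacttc
TBATA: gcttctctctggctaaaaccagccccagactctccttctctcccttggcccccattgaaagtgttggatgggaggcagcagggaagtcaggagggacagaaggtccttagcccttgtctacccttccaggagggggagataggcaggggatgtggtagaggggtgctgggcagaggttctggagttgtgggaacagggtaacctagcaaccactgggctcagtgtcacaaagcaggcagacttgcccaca
TWIST2 held 26 and CCDC15 25 CpG dinucleotides, XAGE2 held 10 and TBATA 0, where the median over all 27305 RefSeq promoters was 11. In the longer windows of 300 bases, the median was 28 in the 32 matched genes and 27 in the 9044 other genes at 3 TPM or more in shControl. Being near 0 in shSASH1 follows from the limits, so these 4 promoters show just that CpG content differed among the genes.

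A composition measure existed for all 50 genes in the first 300 bases of a GENCODE transcript. The ratio of observed to expected CpG was under 0.6 in 19 of 50 (38%), against 24.0% of the other protein-coding genes at 3 TPM or more in shControl. Among genes at 3 to 10 TPM the shares were 41.7% of 36 and 38.4% of 2120 others, a narrower gap than in the RefSeq windows, which cover fewer of the genes. Exon length was similar, with a median of 4446 bases in the 50 genes and 5065 in the others.

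Relatives, defined as protein-coding genes with the same symbol stem, were found for 36 of the 50 genes, and 152 of these relatives were tested. Of them 25 were lower (16.4%), 39 higher (25.7%) and 88 not called, beside 14.0% and 20% of all protein-coding genes tested, with a median log2 change of 0.02. A shared stem does not always mean a shared family, as with UNC13A and the netrin receptors UNC5A and UNC5B, which fell. Of 5 kallikreins tested besides KLK8, 4 fell and KLK14 did not pass. KLK6 fell to 19.0 and 6.28 TPM in shSASH1, against 696 and 711 TPM in shControl, and KLK5 fell to 612 and 340 TPM, against 1571 and 1653 TPM in shControl. KLK6 and KLK5 differed between the shSASH1 libraries, replicate 2 being lower in both.

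Other relatives by stem that fell were EGR1, which belongs with EGR3 to the immediate early EGR family (log2 change -2.33), and BMP7 (-1.21). TCF7 (-1.62) fell too, but it shares just the symbol stem with TCF15, not the family. Among relatives that rose, TWIST1, the paralog of TWIST2, was at 3.28 and 2.68 TPM in shSASH1 and listed at 0 in both shControl libraries (limma adjusted p = 0.00700). STAC rose to 63.4 and 41.1 TPM in shSASH1, against 24.7 TPM in both shControl libraries (log2 change 1.02 ± 0.21 SE, adjusted p = 0.0275; adjusted p = 0.0509 without a filter on low values). COL4A5, another collagen IV chain, rose to 30.7 and 31.2 TPM in shSASH1, against 5.96 and 5.77 TPM in shControl (log2 change 2.22 ± 0.09 SE, adjusted p = 0.00156). UNC13B rose to 22.6 and 20.6 TPM in shSASH1, against 5.93 and 6.19 TPM in shControl. BMP4 rose to 6.004 and 6.78 TPM in shSASH1, against 1.65 and 1.69 TPM in shControl, with BMP2 (log2 change 1.47) and BMP3 (1.73) rising too. C2CD4A (log2 change 2.58), VWA2 (2.27), SLC22A15 (1.60) and DNAJC6 (1.58) rose as well.

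**Figure D3:**
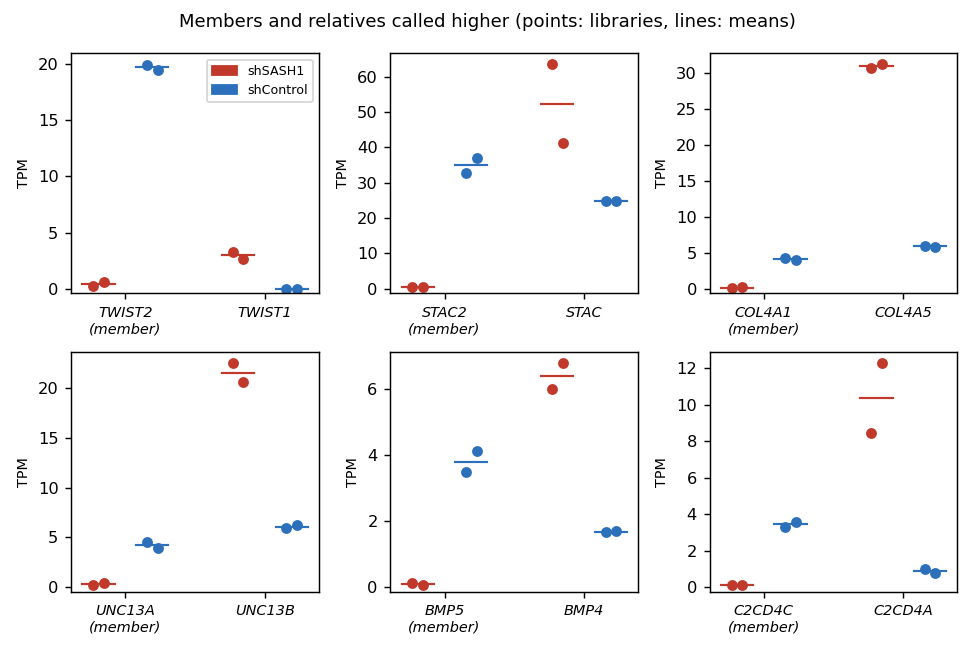
TPM of 6 genes of the group and of 1 relative of each that was called higher, with shSASH1 in red and shControl in blue, points for libraries and lines for means. The pairs were chosen for these opposite directions, as for UNC13A (0.191 and 0.358 TPM in shSASH1) and UNC13B (22.6 and 20.6 TPM in shSASH1). Relatives that fell, such as COL4A2 and BMP7, are not shown.

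**Figure D4:**
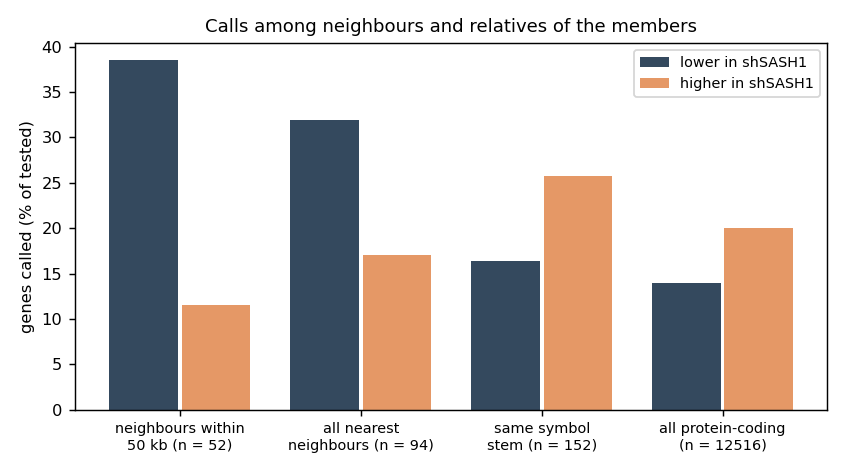
Bars give the percent of tested genes called lower (dark) or higher (orange) in shSASH1 by limma, for neighbours within 50 kb, all nearest neighbours, relatives by symbol stem and all protein-coding genes. The lower share is 38.5% and 31.9% in the neighbour sets, 16.4% in the relatives and 14.0% overall.

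The remaining lists are read against 13.3% lower and 18.8% higher among all tested genes. Of 10 troponin and thin-filament genes tested, 2 fell and 5 rose, with TNNT1 and TNNI2 (log2 change -1.71) lower and the tropomyosin TPM2 (3.55) and TNNT2 (1.92) higher, TNNT2 not passing without a filter on low values (limma adjusted p = 0.0645). Of 10 folate genes, 2 fell and 0 rose: the folate receptor FOLR1 (-4.65), at 0.770 and 1.21 TPM in shSASH1 and 50.4 and 47.0 TPM in shControl and thus outside the 0.5 TPM limit, and GGH (-0.37). Of 9 transcription factors of epithelial-mesenchymal transition and their partners, 2 fell and 4 rose, with the inhibitors ID1 (-2.07) and ID2 (-1.39) lower, and ID4 (1.16) and ID3 (0.91) from the same family higher, along with TWIST1 and FOXC1 (0.81). Of 7 noncoding genes within 10 kb of a gene of the group, none reached the level for testing.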

How the data were processed

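RNA-seq of TRIzol-extracted total RNA from MDA-MB-468 cells gave 4 libraries, made with an NEBNext Ultra kit per the labels' protocols, grouped by title. The authors deposited TPM per Ensembl gene. The submitters' processing notes name STAR, DESeq2 and the build hg38, with neither version nor role. How reads were counted, with which annotation and lengths, and whether by strand, is not stated in them. All 26518 identifiers were found in GENCODE release 29 (hg38), whose gene types and 1-based coordinates were used.

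TPM keeps no depth, so reads were rebuilt as TPM times GENCODE exon length, scaled per library until low values were whole. Of values up to 20 reads, 89.5% and 89.0% (shSASH1) and 89.5% and 89.4% (shControl) came within 0.05 of a whole number. For 35 of the 50 genes all 4 values did, with a wider tolerance for larger ones, so rebuilt reads are estimates.

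Genes averaging 1 TPM or more over the libraries (14458) went into limma (version 3.58.1, R version 4.3.3). The fit used log2(TPM + 1), a variance trend and no replicate block, and calls were two-sided with a threshold of 0.05 on the p adjusted after Benjamini and Hochberg. Fold changes on that scale understate the change of low genes. For a single value, 2 libraries against 2 allow no exact permutation p under 0.333. All 50 genes passed the filter through shControl, and all 50 were called lower, where 13.3% of tested genes were; the choice of genes fixes this. The procedure was tested on simulated data with the same spread at every level, which does not cover genes with few reads.

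The members and lists were chosen with earlier results of these data known. Named genes are the 25 most abundant in shControl, those at 0 in both shSASH1 libraries, those near each other or near a limit, up to 10 relatives and 10 neighbours per direction, and up to 4 called genes per list; role groups and genes of the chromosome stretches were named after their values were seen. DNMT1, PHC1 and PHC2 were named in addition, to show silencing genes that rose, and are not counted among the named genes below. A stem is a symbol without its last digits and letters after them. Tabulation and plots used Python 3.11.15, pandas 2.3.3 and matplotlib 3.10.9.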

Additional observations from a re-analysis of the deposited data

How the results depend on the processing

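The number of genes followed the limits: 28 with a shSASH1 limit of 0.25 TPM, 84 with 1 TPM, 83 with a shControl limit of 2 TPM and 27 with 5 TPM. Requiring each library on its own side of the limit gave 35, and median-of-ratios scaling kept all 50. Applying the limits to 1 library of a group kept 45 to 47 of the 50.

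Counting just calls of 1 or more on the log2 scale, 554 genes were called lower and 734 higher, 13 relatives lower and 17 higher, and 15 neighbours lower and 2 higher. Leaving out each library in turn gave 0 to 3185 genes lower and 0 to 4543 higher, 0 to 37 relatives lower and 0 to 58 higher, and 0 to 39 neighbours lower and 0 to 20 higher. The 0 comes from limma without a shControl library, when the spread rests on the shSASH1 pair alone and the lone library is assumed to vary like it. At an unadjusted p under 0.05, 1329 genes were then lower and 2117 higher without shControl replicate 1, and 1327 and 1999 without shControl replicate 2. All 71 calls on named genes outside the group missed the adjusted threshold without either. The 3185 and 4543 calls came without shSASH1 replicate 1.

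Replicate numbers did not pair the libraries (correlation of same-number deviations -0.0322). With a replicate block, 1557 genes were lower and 2372 higher, 24 relatives lower and 32 higher, and 27 neighbours lower and 16 higher. Of 71 named genes outside the group that were called, 0 changed direction in any setting. In 1 or more settings that kept all libraries, ZC3H12A, ZNG1E, TNNT2, STAC, HPCAL1, VSNL1, L1CAM, ESAM, MSANTD2 and MCRS1 missed the threshold. The restriction to neighbours within 1 Mb, chosen after seeing the data, left 29 of 88 lower and 13 higher. Few reads limit the shSASH1 values of the 12 genes with at most 3.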
